A study of Mus musculus with 14 samples.

Results

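The antioxidant and glutathione defence was examined through 40 genes in the brains of young mice that lack *2310061I04Rik* (*Rik*). The genes were chosen by name for their known roles, out of 56748 in the deposited table. No measured value entered the choice rule, but earlier results of these data were known when the choice was made. All 40 passed the filter on low counts, as did 18170 genes in all, and the member with the fewest counts over the 14 libraries, *Nqo1*, had 1210. The data are RNA sequencing of one side of the brain, cut along the midline, from 8 pups with no intact copy of *Rik* (labelled RIK KO, here *Rik* null) and 6 wild-type (WT) pups, with 1 library for each pup. All pups were on the C57BL6/J strain and were sampled at postnatal day 14. They were littermates of either sex, labelled as 7 males and 1 female among the *Rik* null pups and as 2 males and 4 females among the WT pups. The *Rik* null allele is a small deletion that arose by chance while mice with a floxed *Traf7* gene were being made, and it was bred away from the floxed allele before use. The mutants therefore represent a single line that carries the deletion in every tissue. No treatment was given to either group.

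Cells make superoxide and hydrogen peroxide mainly as by-products of respiration, and 2 thiol systems clear the peroxide. In one, glutathione is oxidized by glutathione peroxidases and reduced again by glutathione reductase, and in the other, peroxiredoxins are oxidized and reduced again by thioredoxin and thioredoxin reductase. The transcription factor NRF2 (gene *Nfe2l2*) is held back by KEAP1 and, when released, binds antioxidant response elements and raises many genes of both systems. In the brain much of the glutathione is made in astrocytes, which take up cystine and feed the precursors to neurons.

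Promoter sequences are shown first, for some members that held a searched element and for 1 further gene of the pathway. They are RefSeq windows on GRCm38.p6 that run from 250 bases before to 50 bases after a gene's start, and 33 of the 40 members had at least 1 window. The core of the antioxidant response element was searched as TGACNNNGC on both strands. It was in the windows of 8 of these 33 members (24.2%), against 14.0% of 27025 genes with a window. A gene counted if any of its windows matched, and the 33 members had 45 windows, against 32851 for the 27025 genes. Known targets of NRF2 were among the members chosen, and the difference in share was not tested. The 8 were *Sod1*, *Prdx1*, *Txnrd1*, *Gclm*, *Srxn1*, *Nfe2l2*, *Gstm5* and *Ucp2*, and 4 of them are printed here, each 5′ to 3′ on its gene's own strand with the match in capitals. In *Prdx1*, *Gclm* and *Srxn1* the core lay on the opposite strand and so reads as GCNNNGTCA.
Prdx1, chr4:116685459-116685481: ggaaagcGCTGAGTCAtcccccg
Gclm, chr3:122245416-122245438: cccgggcGCACCGTCAactctca
Gstm5, chr3:107895805-107895827: cgcccacTGACCACGCggagggc
Srxn1, chr2:152105545-152105567: gtgggcaGCTAGGTCAgagtgag
The *Gclm* and *Prdx1* cores began 134 and 133 bases before the start and that of *Gstm5* 42 bases before it, while that of *Srxn1* lay just inside the transcribed sequence. In the comparison of the genotypes below, *Gstm5* and *Srxn1* lay on opposite sides of 0.

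The promoter of *Txnip*, the member with the largest difference, held a paired E-box-like element, 2 copies of CACGAG with 5 bases between them, beginning 85 bases before its start. This spacing and these letters are those known for the glucose response of *Txnip*, so that finding them there was no result of the search, and 1 of 32851 windows, its own, held them. The cystine exchanger gene *Slc7a11*, which is not among the 40, held the amino acid response element TGATGCAA once on each strand, beginning 66 bases before its start. That element was in 0.895% of all windows and in none of the members' windows. *Slc7a11* was looked at after it had been called in these data, so this match too was no result of the search. Capitals mark the matched elements and the bases between the paired boxes of *Txnip*.
Txnip, chr3:96557865-96557895, plus strand: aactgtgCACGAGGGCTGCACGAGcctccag
Slc7a11, chr3:50443646-50443686, minus strand: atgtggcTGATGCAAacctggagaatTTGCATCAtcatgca
*Glrx2*, *Cat* and *Nqo1*, which ranked next after *Txnip* in the comparison below, had windows without any of these elements. A match describes the letters of these windows and was not tested for binding of any factor.

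Before the comparison, the labels and libraries were checked. *Rik* itself (chromosome 17) had 68.9 to 79.4 CPM (counts scaled to the library's normalized size) in WT and 7.44 to 10.6 CPM in *Rik* null libraries, so all 14 genotype labels held. The sums of counts ran from 15183130 to 28012811 in *Rik* null (median 20396468) and from 18102343 to 30993890 in WT (median 27737932). In 2 WT libraries the X-inactivation RNA *Xist* and Y-linked genes went against the labelled sex: WT 1, labelled male, had 436 CPM of *Xist*, and WT 6, labelled female, had 0.162 CPM of *Xist* and 157 CPM of Y-linked genes. By average linkage over all tested genes the libraries also fell into 2 sets that cut across the genotypes. Set A held *Rik* null 1, 6, 7 and 8 and WT 1, 4, 5 and 6, and set B held *Rik* null 2, 3, 4 and 5 and WT 2 and 3. The summed CPM of 5 oligodendrocyte markers ran from 12115 to 15962 in set A and from 8775 to 10154 in set B, and both genotypes were in each set. Neuronal markers (3901 to 4364 against 3495 to 3690 CPM) and those of oligodendrocyte precursors (146 to 173 against 174 to 203 CPM) did not overlap between the sets either. Markers of the choroid plexus, the meninges and the endothelium moved with the genotype. Those of astrocytes moved with the sets as well, at 3246 to 3879 CPM in set A and 2797 to 3265 in set B. Summed astrocyte markers were 2993 to 3879 CPM in *Rik* null against 2797 to 3340 in WT, with all 5 estimates above 0 and 1 of 5 called higher, *Gfap* (275 to 355 against 237 to 269 CPM, log2 fold change 0.34, SE 0.06, adjusted p = 0.00289 by edgeR). Summed choroid plexus markers were 476 to 607 CPM in *Rik* null against 335 to 506 in WT (3 of 5 called higher), and meningeal markers 69.8 to 99.7 against 52.8 to 73.1 (2 of 5 called higher). Endothelial markers were 128 to 151 CPM against 164 to 191, without overlap and with a lower mean in each of the 5 genes, but 0 of 5 were called lower. Their part in the values below was not tested. In whole tissue, fewer cells of a type and less RNA per cell cannot be told apart.

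The members spanned a wide range of levels in the WT brain. Per length, in the deposited FPKM (counts scaled to gene length and library size), the mean level over the 6 WT libraries ran from 2.18 for *Nqo1* to 127 for *Gpx4*, and 25 of the 40 lay above 10. *Gpx4*, which reduces lipid peroxides in membranes, was followed by the autophagy receptor *Sqstm1* at 124 FPKM, which can draw KEAP1 away from NRF2. The ranges of *Gpx4* (115 to 138) and *Sqstm1* (118 to 131) overlapped, so their order was not fixed by these libraries. Next came *Prdx5* at 88.6, *Prdx2* at 76.1, *Gstm5* at 74.6 and *Txn1* at 64.9 FPKM, the last being cytosolic thioredoxin. Among the peroxiredoxins, *Prdx3* of the mitochondria (41.6 FPKM) and cytosolic *Prdx1* (40.4 FPKM) did not differ beyond their ranges. For superoxide, the cytosolic dismutase *Sod1* stood at 31.4 and the mitochondrial *Sod2* at 16.3 FPKM, with ranges that did not overlap. The rate-limiting subunit of glutathione synthesis, *Gclc*, stood at 14.7 and its modifier subunit *Gclm* at 9.77 FPKM. At the low end were the regulator *Nfe2l2* (3.51), the mitochondrial thioredoxin reductase *Txnrd2* (3.43), and the inducible enzymes *Hmox1* (2.38) and *Nqo1* (2.18). *Hmox2*, the constitutive heme oxygenase, was at 21.9 FPKM, far above its inducible relative. In *Rik* null brains 38 of the 40 kept their rank within 2 places. The other 2 were *Txnip*, at rank 24 in WT and 19 in *Rik* null, and *Glrx2*, at ranks 27 and 31. Reads of *Gpx4*, *Gstp1*, *Gstm1*, *Gstm5* and *Prdx2* could be shared with close copies, of which *Gpx4-ps2* held 13010 counts beside 72441 for *Gpx4*, so the levels of these 5 members are less certain.

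**Figure D1:**
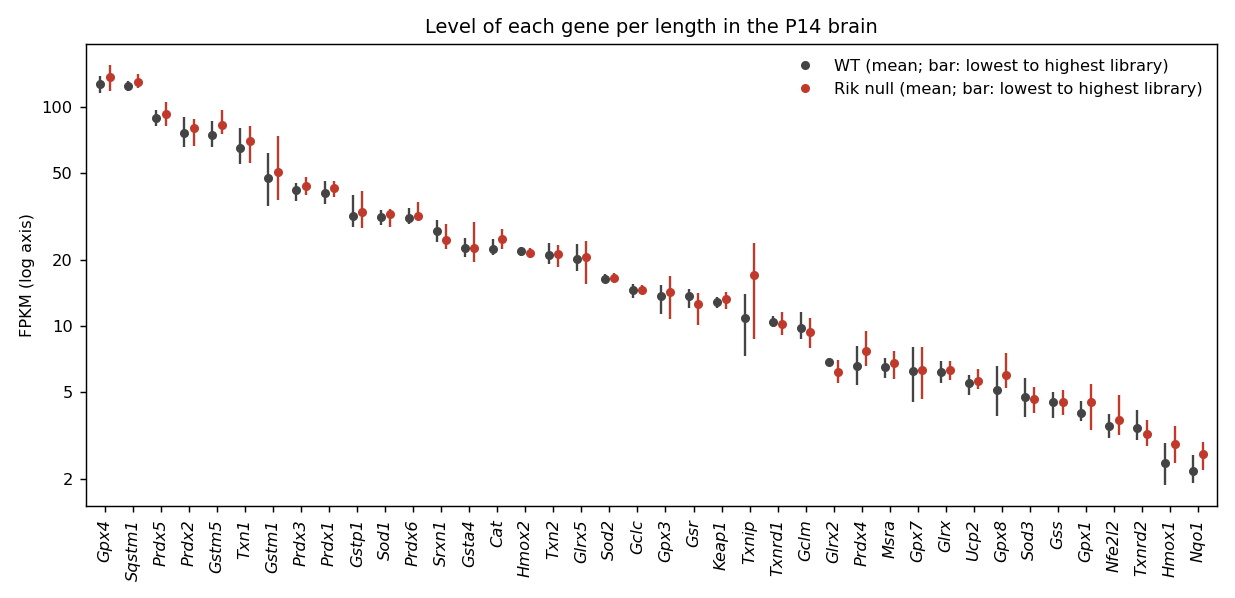
Mean level of each of the 40 genes in FPKM (vertical log axis) in WT (6 libraries, grey) and *Rik* null brains (8 libraries, red), ordered by the WT mean, with bars from the lowest to the highest library. The genotypes lie close together along the whole range from *Gpx4* (127 FPKM in WT) to *Nqo1* (2.18), and the widest gap is at *Txnip*.

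The comparison of *Rik* null with WT brains asked whether this defence was altered at the age when the weight of the mutants begins to part from that of their littermates. No member passed the test. Over the 18170 genes tested by edgeR's quasi-likelihood test, 602 (3.31%) had a p of at most 0.05 after Benjamini-Hochberg adjustment and are termed called: 203 were higher (1.12%) and 399 lower (2.20%) in *Rik* null. Of the 40 members 0 were among them. DESeq2, which called 1133 of 17442 genes (6.50%), called 1 member, *Txnip*. At an unadjusted p under 0.05 edgeR listed 7 of the 40 members, beside 18.6% of all tested genes, 5 of them higher (*Txnip*, *Cat*, *Nqo1*, *Hmox1* and *Gstm5*, beside 8.34% of all genes) and 2 lower (*Glrx2* and *Srxn1*, beside 10.3%). The members' share was thus near the background. Without WT 6 the count was 2, with labelled sex as a term 3, and with the library sets as a term 10. In 0 members were the genotypes free of overlap, against 317 of all tested genes (1.74%).

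The differences were small as well as uncalled. Of the 40 members, 29 differed by less than 0.1 on the log2 scale, and the median standard error was 0.073. The 95% interval of the difference lay within 1.2-fold in either direction for 26 members and within 1.5-fold for 39, the exception being *Txnip*. The estimates were above 0 for 29 members and below 0 for 11, with a median of 0.05 on the log2 scale against 0.0017 over all genes, of which 50.5% were above 0. Among the libraries labelled male the members' median was −0.0091 and 19 of 40 were above 0, so the sign of the group's median turned there. The WT side of that fit was WT 1 and WT 2, and the *Xist* level of WT 1 went against its label. The members' median was 0.0265 without WT 5, 0.0318 without WT 6, 0.0745 without *Rik* null 8 and 0.0284 with the library sets as a term. The median SD of a member within a genotype was 0.142 on the log2 scale, against 0.166 over all genes. These medians were not matched for counts, of which each member had at least 1210, so they are not read as a trait of the members.

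**Figure D2:**
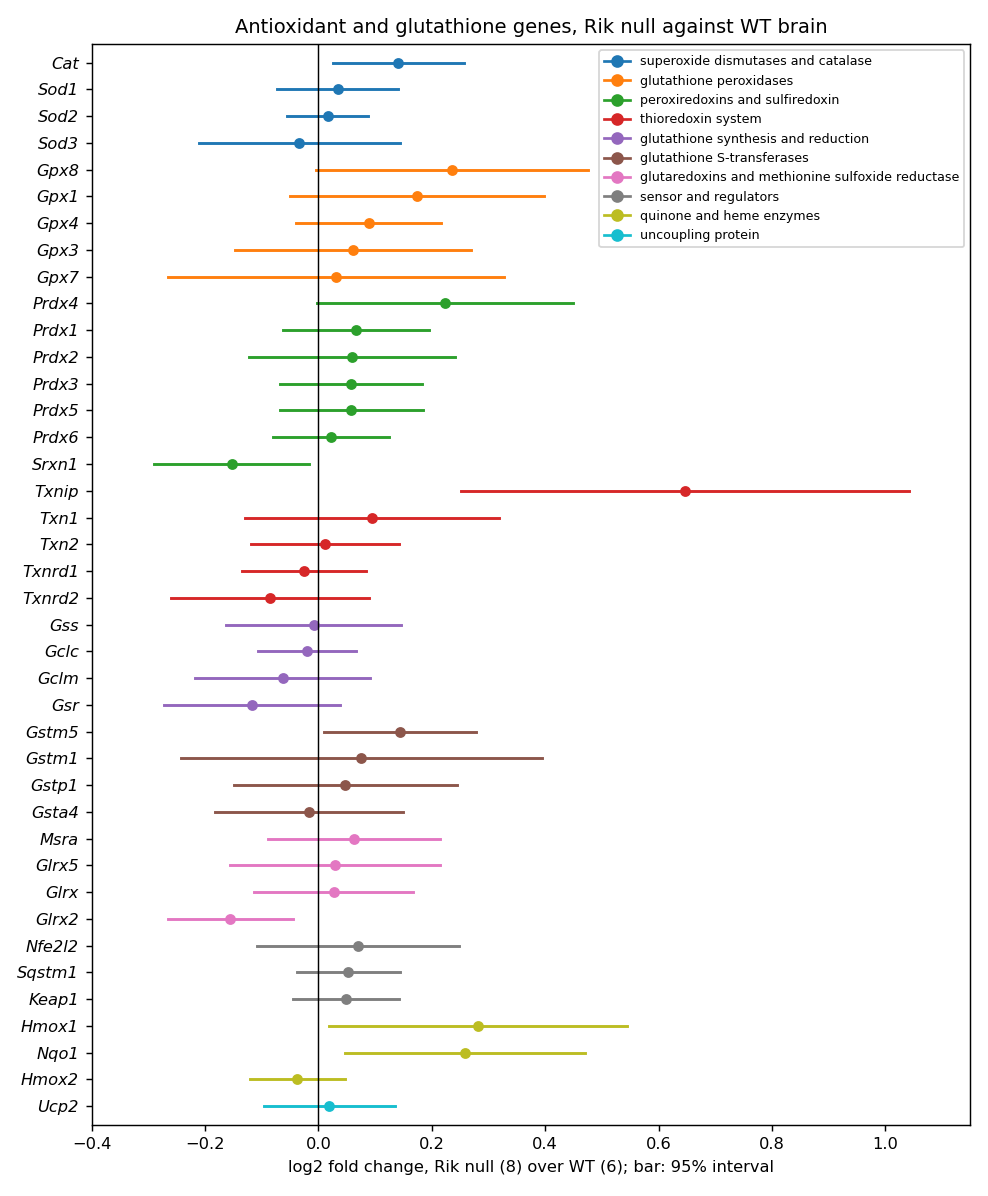
Log2 fold change of *Rik* null (8 libraries) over WT (6 libraries) for the 40 genes, grouped by role (colour), with 95% intervals. Intervals of 7 genes leave out 0, none of them past the adjusted threshold, and *Txnip* lies farthest to the right at 0.65.

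*Txnip* encodes thioredoxin-interacting protein, which binds reduced thioredoxin and restrains glucose uptake, and whose mRNA follows the supply of glucose in many cells. Its WT libraries had 23.1, 28.4, 30.7, 39.88, 39.99 and 44.0 CPM. The *Rik* null libraries had 27.5, 37.9, 51.1, 53.0, 56.9, 62.4, 66.0 and 74.9 CPM, so that 6 of 8 lay above every WT library, while *Rik* null 1 and 6 lay within the WT range. The log2 fold change was 0.65 (SE 0.19, 95% interval 0.25 to 1.04), with an adjusted p of 0.0669 by edgeR. Its call depended on the fit. It was called by DESeq2 (0.65, adjusted p = 0.0466), with no filter on low counts (0.64, adjusted p = 0.0480), with the library sets as a term (0.54, adjusted p = 0.0193), without *Rik* null 1 (0.74, adjusted p = 0.0147) and without *Rik* null 6 (0.71, adjusted p = 0.0451). It was not called without the 2 WT libraries whose sex went against the label (0.50, adjusted p = 0.32), and leaving out single libraries gave adjusted p from 0.0147 to 0.149.

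Part of the spread of *Txnip* went with the library sets. In set A its *Rik* null libraries had 27.5 to 53.0 CPM and its WT libraries 23.1 to 44.0, which overlap. In set B its 4 *Rik* null libraries had 56.9 to 74.9 CPM against 39.88 and 39.99 in the 2 WT libraries. Within set A the log2 fold change was 0.42 (adjusted p = 0.405 by edgeR) and within set B it was 0.71 (adjusted p = 7.1e-05). The difference between these 2 values was not tested. Thioredoxin itself (*Txn1*), its mitochondrial form (*Txn2*) and both reductases (*Txnrd1*, *Txnrd2*) had log2 fold changes between −0.09 and 0.09, none called, beside 0.65 for *Txnip*.

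**Figure D3:**
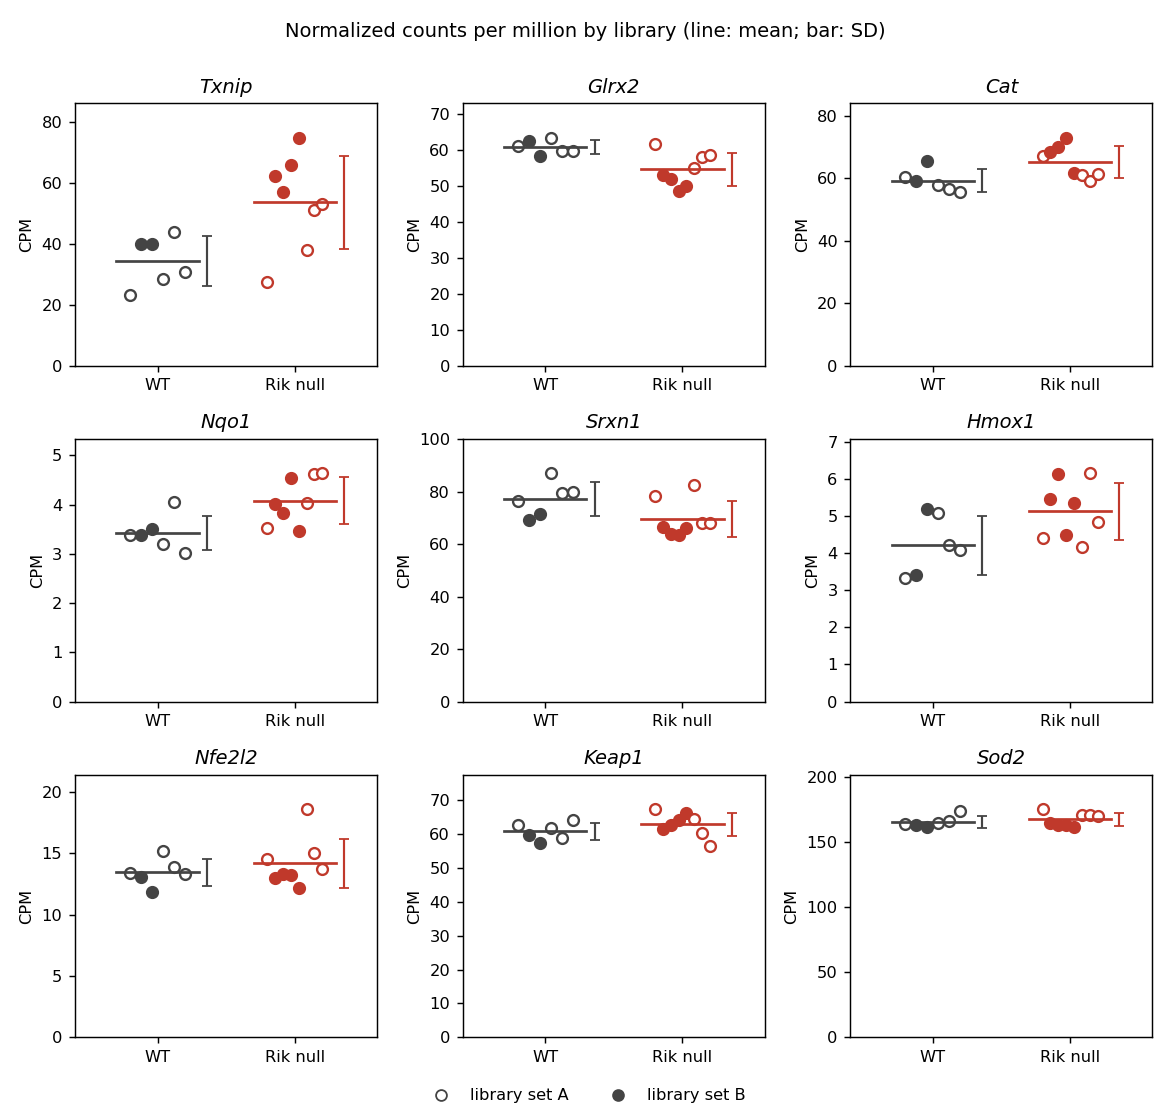
CPM in each library for 9 genes, WT (grey) and *Rik* null (red), with open circles for library set A and filled circles for set B, a line at each mean and a bar of 1 SD. In *Txnip* the 4 filled red points (56.9 to 74.9) stand above all others, and in *Nfe2l2*, *Keap1* and *Sod2* the genotypes overlap throughout.

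The sensor and its regulators overlapped between the genotypes, with differences under 0.1 on the log2 scale. *Nfe2l2* had 11.9 to 15.2 CPM in WT (median 13.3) and 12.2 to 18.6 in *Rik* null (median 13.5), a log2 fold change of 0.07 (SE 0.08). *Keap1* had 57.5 to 64.3 CPM in WT (median 60.8) and 56.4 to 67.3 in *Rik* null (median 63.4), a log2 fold change of 0.05 (SE 0.04). *Sqstm1* differed by 0.05 (SE 0.04). NRF2 is known to be set mainly by the stability of its protein, which was not measured here.

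Genes known as targets of NRF2 in mouse leaned in both directions. *Nqo1*, a quinone reductase used as a reporter of NRF2, had 3.01 to 4.04 CPM in WT (median 3.38) and 3.46 to 4.63 in *Rik* null (median 4.02), a log2 fold change of 0.26 (SE 0.10, adjusted p = 0.172 by edgeR). *Hmox1*, which degrades heme, had 3.33 to 5.19 CPM in WT (median 4.14) and 4.16 to 6.15 in *Rik* null (median 5.10), a log2 fold change of 0.28 (SE 0.12, adjusted p = 0.234 by edgeR). *Srxn1*, sulfiredoxin, which revives over-oxidized peroxiredoxins, had 69.3 to 87.0 CPM in WT (median 78.0) and 63.6 to 82.4 in *Rik* null (median 67.3), a log2 fold change of −0.15 (SE 0.06, adjusted p = 0.214 by edgeR). Glutathione reductase, *Gsr*, stood at −0.12 (SE 0.07), and the modifier subunit *Gclm* at −0.06 (SE 0.07). The 4 genes of glutathione synthesis and reduction were all below 0, with a median of −0.04, but none of the 4 was at an unadjusted p under 0.05. The signs of 3 of them turned with the processing: *Gss* (−0.0085) turned above 0 in 10 alternatives, the sets as a term among them, and *Gclc* and *Gclm* in 2 each.

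Among the enzymes that act on superoxide and peroxide, the mitochondrial dismutase was the steadiest. *Sod2* had 162 to 174 CPM in WT (median 164) and 161 to 175 in *Rik* null (median 167), a log2 fold change of 0.016 with a 95% interval from −0.055 to 0.087, the narrowest of all members. Catalase (*Cat*), which breaks down hydrogen peroxide in peroxisomes, had 55.5 to 65.7 CPM in WT (median 58.6) and 59.1 to 73.1 in *Rik* null (median 64.4), a log2 fold change of 0.14 (SE 0.05, adjusted p = 0.172 by edgeR). The 5 glutathione peroxidases were all above 0, from 0.03 to 0.24 with a median of 0.09, and none was at an unadjusted p under 0.05. *Gpx7*, at 0.03 (SE 0.14), turned below 0 in 9 alternatives, within each library set among them, and *Gpx3* in 1, without WT 1 and 6. The largest of them was *Gpx8*, an enzyme of the endoplasmic reticulum, at 0.24 (SE 0.11), followed by cytosolic *Gpx1* at 0.17 (SE 0.11), *Gpx4* at 0.09 (SE 0.06) and the secreted *Gpx3* at 0.06 (SE 0.10). Of the peroxiredoxins the secretory form *Prdx4* stood at 0.22 (SE 0.11), and *Prdx1*, *Prdx2*, *Prdx3* and *Prdx5* stood between 0.06 and 0.07 (SE 0.06 to 0.09). The intervals of *Gpx8* and *Prdx4* just included 0.

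For the 8 members listed by a product in mitochondria, some of which also act elsewhere, the median log2 fold change was 0.02. *Glrx2*, a glutaredoxin of mitochondria, was the only one at an unadjusted p under 0.05. *Glrx2* had 58.3 to 63.4 CPM in WT (median 60.4) and 48.6 to 61.7 in *Rik* null (median 54.0), with 6 of 8 *Rik* null libraries below every WT library. The log2 fold change was −0.16 (SE 0.05, adjusted p = 0.112 by edgeR), and it was called without *Rik* null 1 (−0.18, adjusted p = 0.0405) and within set B alone (−0.25, adjusted p = 0.0195). *Txnrd2* stood at −0.09 (SE 0.08) and *Prdx3* at 0.06 (SE 0.06). The methionine sulfoxide reductase *Msra* stood at 0.06 (SE 0.07).

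Of the glutathione S-transferases, which join glutathione to reactive compounds, *Gstm5* had 84.3 to 111 CPM in WT (median 96.8) and 96.3 to 124 in *Rik* null (median 106), a log2 fold change of 0.14 (SE 0.06, adjusted p = 0.236 by edgeR). With the library sets as a term it was called (0.17, adjusted p = 0.0419). *Gstm1*, common in astrocytes, stood at 0.08 (SE 0.15), with the widest interval of this family. Without *Rik* null 6 it stood at −0.018, and with the library sets as a term at 0.17 (SE 0.07, adjusted p = 0.137 by edgeR), uncalled in both. The other 14 members, whose estimates were under 0.05 in size, were *Sod1*, *Sod3*, *Gpx7*, *Prdx6*, *Txn2*, *Txnrd1*, *Gss*, *Gclc*, *Hmox2*, *Gsta4*, *Gstp1*, *Glrx*, *Glrx5* and *Ucp2*, and none of them was called under any alternative.

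The members were also compared between the library sets. For 29 of the 40 the difference between sets A and B was larger than that between genotypes. The share over all genes was not computed, so this count is not read as a trait of the members. In 5 members the sets did not overlap, against 9.01% of all tested genes. Since the sets were formed from the same values, this is a description and no test. *Gstm1* differed most in the downward direction, with 68.4 to 109 CPM in set A and 52.6 to 63.6 in set B (log2 difference −0.53). The 3 genes that build glutathione, *Gclc*, *Gclm* and *Gss*, were lower in set B too, with differences of −0.10, −0.24 and −0.24 and no overlap. *Txn1* went the other way, with 58.0 to 74.8 CPM in set A and 76.7 to 86.4 in set B (0.38). The part of the oligodendrocyte, precursor, neuronal and astrocyte markers, which also moved with the sets, was not tested. Within both sets the genotype difference had the same sign in 31 members, 23 higher and 8 lower in *Rik* null. For this count too the share over all genes was not computed.

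**Figure D4:**
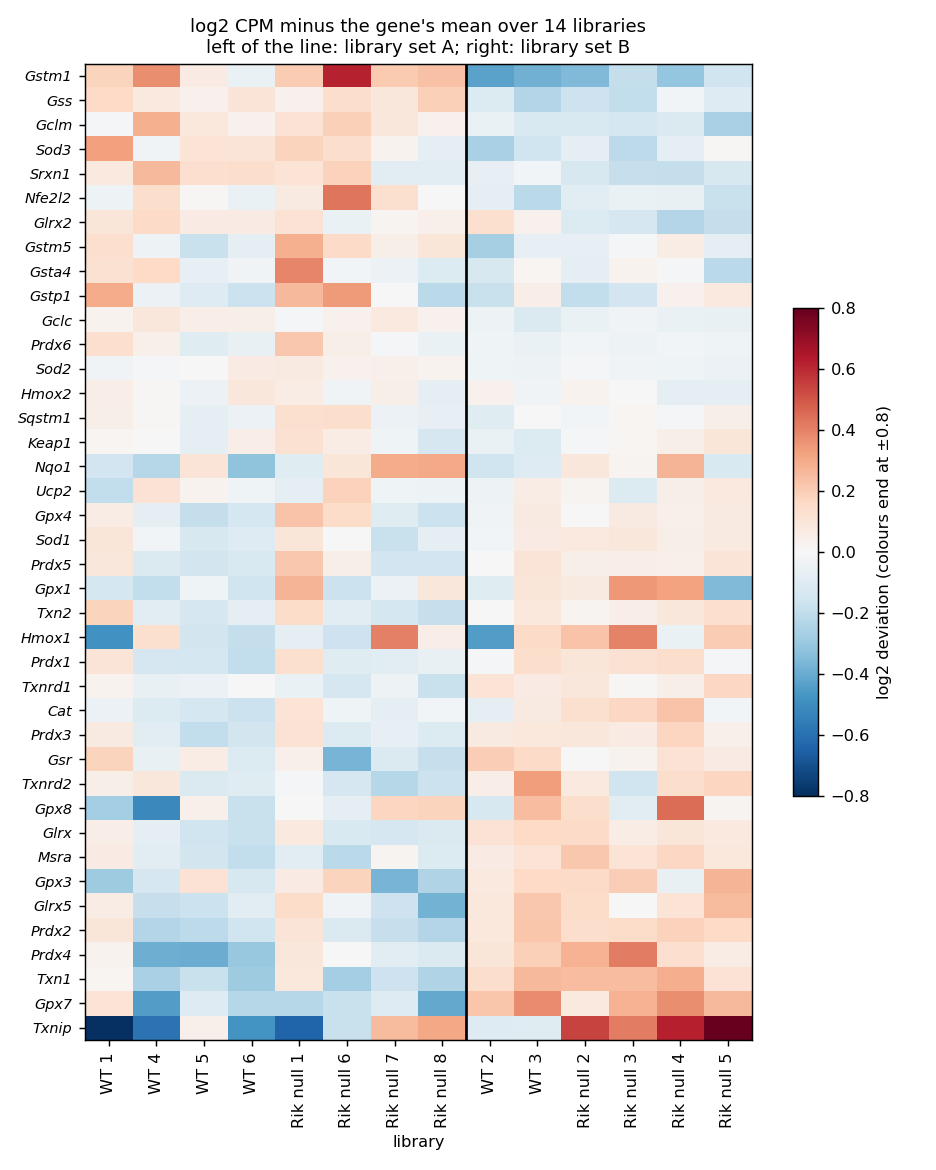
Log2 CPM of each gene in each library minus the gene's mean over the 14 libraries (red above, blue below), with set A left of the line and set B right of it, and genes ordered by the difference between sets. *Gstm1*, *Gss* and *Gclm* at the top are lower in set B, while *Txn1*, *Gpx7* and *Txnip* at the bottom are higher there.

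Beyond the 40, a further 134 genes of the pathway were listed by role, of which 119 were tested. Of these, 2 were called higher (against 1.12% of all genes) and 1 lower (against 2.20%). The 3 calls among 119 genes were thus near the share over all genes in either direction (3.31%). At an unadjusted p under 0.05 edgeR listed 14 of the 119, beside 18.6% of all tested genes. Their median log2 fold change was 0.04. The list of cystine and glutathione handling had 1 of 28 tested genes called higher and a median of 0.08. In it 22 were above 0, beside 50.5% of all genes. The counts of single lists are small and are read beside these same shares. The list of thiol and repair enzymes had 1 of 20 called higher, and that of arrestin-domain relatives of *Txnip* with its glucose-sensing factors had 1 of 7 called lower. The lists of NRF2 targets and partners (25 tested), selenoproteins and their machinery (25), producers of reactive oxygen (11) and uncoupling proteins (3) had 0 called by edgeR, with 3, 1, 2 and 0 genes at an unadjusted p under 0.05. The list of NRF2 targets and partners does not hold every known target. Outside it are those among the 40 and the called *Slc7a11*, which was counted with cystine and glutathione handling.

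*Slc7a11* encodes the exchanger that brings in cystine, the raw material of glutathione, in return for glutamate. Its WT libraries had 33.0 to 41.1 CPM (median 35.0) and its *Rik* null libraries 43.6 to 61.9 (median 48.7), with no overlap. The log2 fold change was 0.47 (SE 0.07, adjusted p = 0.00231 by edgeR). The 3 genes that build glutathione from its product, *Gclc*, *Gclm* and *Gss*, had log2 fold changes of −0.02, −0.06 and −0.0085. *Slc7a11* was called within set A (0.54, adjusted p = 0.0333) and within set B (0.42, adjusted p = 0.0022), and it was not called by edgeR among the libraries labelled male (0.56, adjusted p = 0.14). *Slc7a11* is expressed in astrocytes and in cells of the meninges and choroid plexus, whose marker sums are given above, and their part in its difference was not tested.

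*Aldh1l2* encodes the mitochondrial formyltetrahydrofolate dehydrogenase, which yields NADPH in mitochondria. Its level was 3.80 to 5.08 CPM in WT (median 4.64) and 5.19 to 7.67 in *Rik* null (median 6.14), with no overlap. The log2 fold change was 0.47 (SE 0.10, adjusted p = 0.0132 by edgeR). *Aldh1l2* was not called without the 2 WT libraries whose sex went against the label (0.49, adjusted p = 0.0549 by edgeR). It was also uncalled by edgeR within set A (0.44, adjusted p = 0.198), within set B (0.46, adjusted p = 0.0871) and among the libraries labelled male (0.42, adjusted p = 0.366). *Mlx* encodes the partner through which the glucose-sensing factors MondoA and ChREBP bind paired E-boxes such as that of *Txnip*. It had 26.2 to 31.3 CPM in WT (median 28.3) and 22.0 to 26.2 in *Rik* null (median 24.2), and its log2 fold change was −0.23 (SE 0.05, adjusted p = 0.0281 by edgeR). *Mlx* lost its call without *Rik* null 3 and without WT 1, 2, 4 or 6, each in turn (adjusted p up to 0.0714), without WT 1 and 6 together (−0.18, adjusted p = 0.199) and with no filter (−0.24, adjusted p = 0.0518). Nor was it called within set A (−0.25, adjusted p = 0.194), within set B (−0.20, adjusted p = 0.208) or among the libraries labelled male (−0.30, adjusted p = 0.231).

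**Figure D5:**
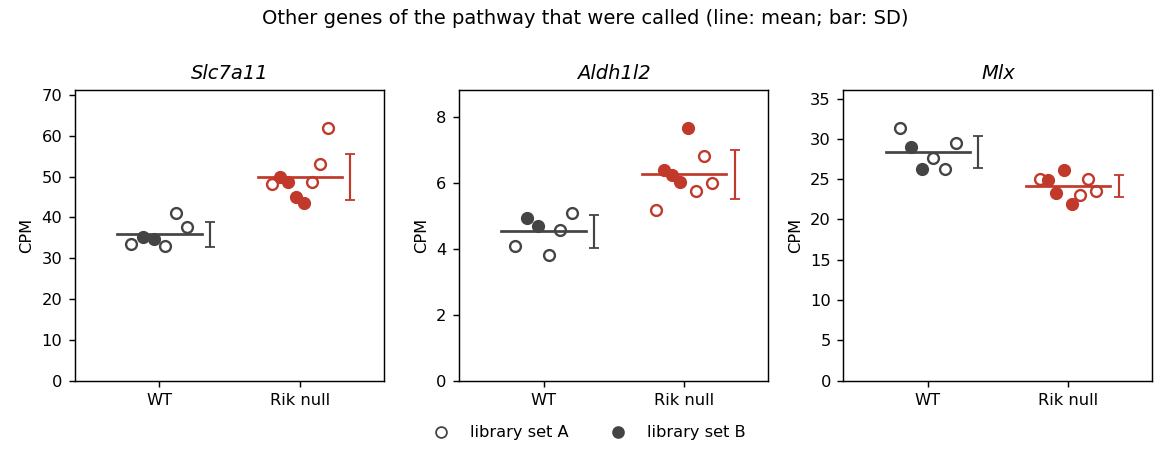
CPM in each library for the 3 further pathway genes that were called, WT (grey) and *Rik* null (red), open circles for library set A and filled for set B, with the mean (line) and SD (bar). In *Slc7a11* and *Aldh1l2* every *Rik* null library lies above every WT library, and in *Mlx* every one lies below.

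The mitochondrial transhydrogenase *Nnt*, another source of mitochondrial NADPH, was almost absent in both genotypes, with 1 to 9 counts in WT and 0 to 6 in *Rik* null libraries. C57BL/6J mice are known to carry a deletion in *Nnt*, which in other strains supplies reducing power to the mitochondrial peroxiredoxin and glutathione systems. It and 14 other genes of the 134 had too few counts to be tested.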

How the data were processed

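Per the labels, total RNA was purified from one side of each brain, and cDNA libraries, sequencing and the first bioinformatic steps were done by a service laboratory. Which aligner and counter were run, and whether by strand, is not given in the sources used here. Labels give mm10 as the build. For 56748 genes the authors deposited raw whole-number counts per library. The deposited FPKM of a library are these counts over gene length, times a constant. Columns with the authors' own group means, fold changes and p-values were not used.

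Counts were fitted in R 4.3.3 with edgeR 4.0.16 (filterByExpr by genotype, TMM factors, quasi-likelihood F-test, no covariate), with p adjusted over 18170 genes. The script was checked on simulated counts. CPM use TMM-scaled library sizes, and intervals are at 95%. Alternatives were DESeq2 1.42.0, its size factors, other filters, labelled sex, replicate number or library set as a term, subsets of libraries, and other thresholds. Of identifiers that share a name, the one with most counts was kept. The labels do not tie pups to litters, and p-values measure the spread between these libraries.

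The members and the lists were chosen with earlier results of these data known. By rule, values over all libraries were given for called members and for *Nfe2l2*, *Keap1*, *Nqo1*, *Hmox1*, *Sod2* and *Txnip*, and up to 4 called genes were named per further list. Fold changes were given one by one for those 6 and for members at 0.05 or more in size (26 in all), and members beyond the 6 were singled out after their values were seen. A chi-square statistic per gene, computed for the 91 pairs of libraries without a test, was at least 2.48, so no library was an exact copy of another. Gene positions and promoter windows are those of GRCm38.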

Additional observations from a re-analysis of the deposited data

Results flagged for a closer look

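In 5 of the 80 groups of values (40 members in 2 genotypes) 1 library lay apart from the rest by Dixon's criterion, which chance meets in about 1 of 20 groups. These were *Sod2* at 174 CPM in WT 6, *Gpx8* at 7.98 CPM in *Rik* null 4, *Prdx6* at 176 CPM in *Rik* null 1, *Nfe2l2* at 18.6 CPM in *Rik* null 6 and *Gsta4* at 37.7 CPM in *Rik* null 1. All 5 were the highest of their group. Leaving out *Rik* null 6 lowered the log2 fold change of *Nfe2l2* from 0.07 to 0.01, and none of these 5 genes was called with or without the library concerned.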

How the results depend on the processing

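The count of 0 members called held with DESeq2's size factors, with at least 10 counts in every library, with labelled sex as a term, among the libraries labelled male, without WT 1 and WT 6, in set A alone, without the mitochondrially encoded genes in the normalization and with a fold threshold of 1 (log2) added. It was 1 (higher) with DESeq2's test, with no filter and at an adjusted p of at most 0.1, 2 (both higher) with the library sets as a term, and 2 (1 higher, 1 lower) in set B alone. Leaving out 1 library gave 0 to 2 members, 0 to 1 higher and 0 to 1 lower. The 2 were *Txnip* and *Glrx2* without *Rik* null 1 (0.74 and −0.18), and the 1 was *Txnip* without *Rik* null 6 (0.71). Over all genes, 602 calls became 1133 with DESeq2's test, 359 with no filter, 153 with labelled sex and 7 among the libraries labelled male. They became 168 without WT 1 and WT 6, 1522 with the sets as a term and 46 in set A. With the fold threshold they were 20, and at an adjusted p of at most 0.1 they were 1237. With 1 library left out they ran from 287 to 820. The 3 calls among the further pathway genes became 0 among the libraries labelled male, 1 without WT 1 and WT 6 and 7 with the sets as a term. They became 1 in each set alone and 0 with the fold threshold, and stayed at 2 to 3 with 1 library left out. In settings with fewer libraries, fewer were compared, and otherwise the cause was not tested.

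Among the 26 members given one by one, signs of some uncalled values turned. In the libraries labelled male they did so for *Prdx1* (−0.0091), *Prdx2* (−0.075), *Prdx3* (−0.046), *Prdx5* (−0.026), *Txn1* (−0.035), *Gclm* (0.044) and *Msra* (−0.041). In set A they turned for *Gclm* (0.0036) and *Msra* (−0.0021), and without WT 1 and WT 6 for *Gpx3* (−0.018). With 1 library left out *Gstm1* ran from −0.018 to 0.17. The other 14 members changed sign in 36 of 168 alternatives and 29 of 196 fits without 1 library, and were called in 0.

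Replicate numbers 1 to 6 are shared by the genotypes. Deviations of libraries with the same number correlated from −0.337 to 0.316. They were below 0 in 2 of 6 pairs, numbers 4 and 5, the only pairs whose libraries lay in different library sets. The correlations thus moved with the sets and cannot tell whether the numbers pair pups. The main fit used no pairing, and the labels do not tie pups to litters. With the replicate block 3 members were called, all higher: *Txnip* (0.63, adjusted p = 0.0129 by edgeR), *Prdx4* (0.29, adjusted p = 0.0476) and *Cat* (0.18, adjusted p = 0.0496), among 763 genes (4.25%).

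The sexes were unbalanced between the genotypes, and 2 sex labels went against *Xist* and the Y-linked genes. The fits by labelled sex kept these labels, and set B held only 2 WT libraries. The differences at the size of *Nqo1* and *Hmox1* rest on few counts. Protein, glutathione or redox state was not measured.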
